A study of Mus musculus with 4 samples.

Results

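Proteoglycans of the extracellular matrix were followed across footprint levels, RNA levels and translation efficiencies in mouse hearts. The 9 genes were chosen by name: biglycan (Bgn), decorin (Dcn), asporin (Aspn), lumican (Lum), fibromodulin (Fmod), osteoglycin (Ogn), Prelp, versican (Vcan) and perlecan (Hspg2). Each name stood on 1 row of both deposited tables, so 9 of 55382 genes were described, and all 9 passed the filters of every comparison. Ribosome profiling, which sequences the mRNA fragments that ribosomes shield from a nuclease, was done on hearts taken at day 15 after birth. The 2 libraries called WT carry FF in their names and come from NAT10-FF mice, and the 2 called KO come from NAT10-CKO mice, which carry a conditional knockout of Nat10. NAT10 adds acetyl groups to cytidines of RNA and also helps to assemble ribosomes. The sources used here do not give the promoter that drives the recombinase, the deleted exons or the sex of the mice. All 4 libraries share 1 batch label, and nothing says that replicates are separate animals, so p-values reflect the spread among these 4 libraries alone, and that spread may be technical.

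A proteoglycan is a core protein that carries long sulfated sugar chains called glycosaminoglycans. The small leucine-rich family, to which all members but Vcan and Hspg2 belong, binds collagen fibrils and controls their thickness and spacing. Several of its members also bind growth factors of the TGF-beta family, and free biglycan can act on Toll-like receptors. Versican is a large chondroitin sulfate proteoglycan that binds hyaluronan and is needed for the forming heart, and perlecan is the heparan sulfate proteoglycan of basement membranes. In the heart these proteins are made mainly by fibroblasts, and perlecan also by endothelial cells and others.

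The genes of the small leucine-rich family lie in groups on the genome. In GRCm38, Dcn (chr10:97479500-97518163) and Lum (chr10:97565501-97572703) are neighbours on chromosome 10. Aspn (chr13:49544443-49567565) and Ogn (chr13:49608015-49624501) lie on chromosome 13 on either side of osteomodulin (Omd). Both lie within the locus of Cenpp, whose own footprint level was at most 0.873 FPKM in any library. Prelp (chr1:133910304-133930102) and Fmod (chr1:134037254-134048280) share chromosome 1. Bgn (chrX:73483601-73495936) stands apart on the X chromosome. Vcan is at chr13:89655309-89743027 and Hspg2 at chr4:137468751-137570630. The deposited tables list the genes by Ensembl identifier, ENSMUSG00000031375 (Bgn), ENSMUSG00000019929 (Dcn), ENSMUSG00000036446 (Lum), ENSMUSG00000041559 (Fmod), ENSMUSG00000021390 (Ogn), ENSMUSG00000041577 (Prelp), ENSMUSG00000021388 (Aspn), ENSMUSG00000021614 (Vcan) and ENSMUSG00000028763 (Hspg2).

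Stretches before the start site are shown for 3 genes that differed in how their RNA and footprints compared: Bgn, higher in both, Fmod, with the largest footprint difference, and Ogn, with both KO libraries above both WT libraries in footprints but not in RNA. Each is the 250 bases before the gene's start in RefSeq's GRCm38.p6 table, read 5′ to 3′ on the plus strand, at chrX:73483351-73483600 for Bgn, chr1:134037004-134037253 for Fmod and chr13:49607765-49608014 for Ogn. Capitals mark any match, on either strand, to 6 short motifs: GGGCGG (the GC box bound by Sp factors), TATAAA (a form of the TATA box), CCAAT (the box that binds NF-Y), CAGAC (a SMAD element), TGANTCA (the AP-1 element) and GGAATG (a TEAD element).
Bgn: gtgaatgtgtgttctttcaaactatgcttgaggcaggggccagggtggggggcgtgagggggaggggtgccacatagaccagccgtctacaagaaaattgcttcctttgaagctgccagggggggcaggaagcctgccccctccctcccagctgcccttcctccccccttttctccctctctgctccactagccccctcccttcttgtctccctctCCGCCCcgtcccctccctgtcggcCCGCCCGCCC
Fmod: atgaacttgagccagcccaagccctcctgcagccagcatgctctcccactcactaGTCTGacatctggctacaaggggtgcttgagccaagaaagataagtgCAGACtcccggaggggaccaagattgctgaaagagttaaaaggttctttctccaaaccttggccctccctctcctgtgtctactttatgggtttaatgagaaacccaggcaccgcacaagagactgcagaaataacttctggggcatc
Ogn: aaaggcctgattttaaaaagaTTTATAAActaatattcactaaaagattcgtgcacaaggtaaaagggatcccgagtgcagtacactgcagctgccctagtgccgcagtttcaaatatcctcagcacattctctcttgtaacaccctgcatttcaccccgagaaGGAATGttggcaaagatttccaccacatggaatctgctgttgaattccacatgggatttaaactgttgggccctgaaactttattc
In Bgn the capitals are GC boxes that begin 34, 10 and 6 bases before the start, the last pair overlapping. In Fmod they are SMAD elements 195 and 148 bases before it. In Ogn they are TATAAA matches that overlap, 229 and 227 bases before the start, and a TEAD match at 86 bases. Of the 7 members with an entry in the table (all but Dcn and Lum), 3 held a GC box, against 32.7% of all 32851 entries. CAGAC was in 2 of 7 against 42.2%, CCAAT in 3 of 7 against 33.8%, TATAAA in 2 of 7 against 12.4%, GGAATG in 1 of 7 against 12.6% and TGANTCA in none against 6.75%. A match in so short a motif describes the letters and shows no binding. G and C made up 64.4% of the Bgn stretch, 51.2% of that of Fmod and 42.0% of that of Ogn, with a median of 52.4% over all entries.

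Values are in FPKM, which scales fragments to gene length and to each library's mapped total. Each library had footprints on 16425 to 16900 genes and a summed FPKM of 7.04e+06 to 8.73e+06, and its depth in reads is unknown. The targeted gene, Nat10, read 77.3 and 73.9 FPKM of footprints in WT against 40.01 and 52.1 in KO and did not pass the test (limma adjusted p = 0.295). Both KO values lay below both WT values, as in 12.1% of tested genes, and the part of the gene that was deleted is not known here. Cardiomyocyte markers summed to 149832 and 155630 FPKM in WT against 102117 and 106076 in KO. They were high in every library, and 9 of 10 had both KO values below both WT values, with none past the test. The label names cardiomyocytes, but the protocol describes whole heart tissue. Fewer cells of a type and less RNA per cell cannot be told apart in such samples.

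Footprint levels were compared first, to ask which of these mRNAs carried more or fewer ribosomes in KO hearts. Bgn was the member that rose by limma's test, 3.45-fold, while Vcan and Fmod had larger fold differences that missed the threshold. No member fell, against 0.126% of genes. An unadjusted p under 0.05 was reached by 8 members, against 17.3% of genes. In 8 of the 9 members both KO libraries lay above both WT libraries, and Hspg2 was the exception. Such separation upwards was common, at 39.5% of the 15031 genes tested, and a rise past the threshold was rare, at 0.253%. The median log2 difference was 1.14 over the 9 members and 0.36 over all genes tested. All 9 differences were above 0, as were 71.1% of those of all genes. Relative to the all-gene median, the difference was 1.43 for Bgn, 2.47 for Fmod, 2.01 for Vcan and -0.33 for Hspg2. Folds are on the log2(FPKM + 1) scale, on which differences of low genes come out too small.

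**Figure D1:**
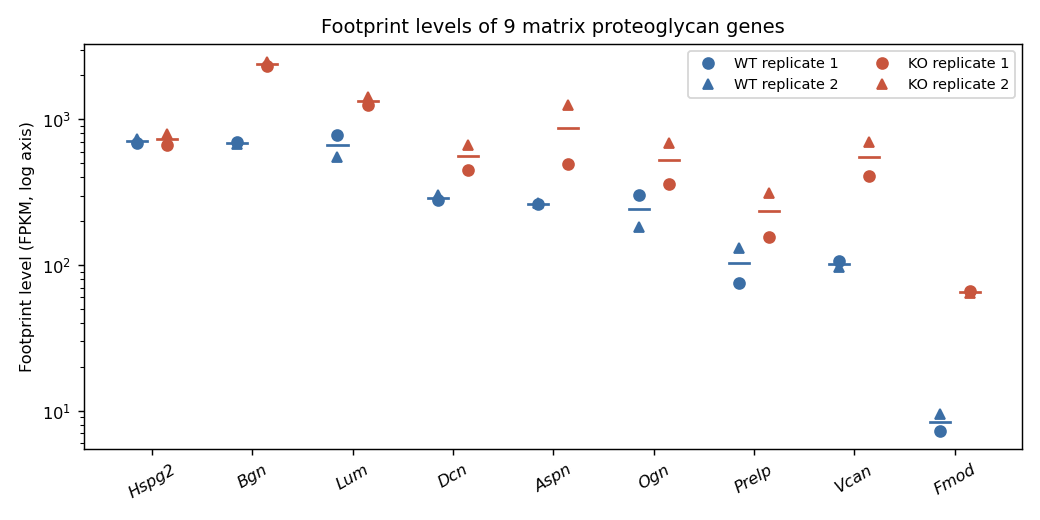
Footprint level in FPKM (log axis) of the 9 members, ordered by their WT mean, with a point per library (circles replicate 1, triangles replicate 2, blue WT, red KO) and a bar at each group mean. Both KO points lie above both WT points for every member but Hspg2.

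Bgn carries chondroitin or dermatan sulfate chains and organises collagen fibrils. It read 701 and 678 FPKM in WT against 2307 and 2456 in KO, or 690 ± 16.5 against 2381 ± 105 (SD, n = 2). The libraries of a group lay close together and the groups stood far apart. The log2 difference was 1.79 (SE 0.20, 95% interval 1.29 to 2.28, limma adjusted p = 0.041), and 602 of the 15031 genes (4.01%) had a larger one. The size hardly moved when a library was left out, from 1.74 to 1.83, but the call was lost each time (adjusted p = 0.299 to 0.666), as were those of all 57 genes called. In a fit that leaves out 1 library, its group holds a single library that is assumed to vary like the other group, so such p-values say little of how stable a call is. It was also lost after median-ratio scaling of the libraries (log2 difference 1.41, adjusted p = 0.072).

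Decorin, a close relative of biglycan, binds collagen and holds TGF-beta in the matrix. Dcn read 278 and 301 FPKM in WT against 448 and 665 in KO. The groups did not overlap, yet the KO libraries differed from each other more than either WT library did from the other. The log2 difference was 0.91 (SE 0.27, limma adjusted p = 0.213). Within each library, the ratio of Bgn to Dcn does not depend on how libraries are scaled. That ratio of footprint levels was 2.53 and 2.25 in WT against 5.15 and 3.69 in KO, a mean 1.83-fold higher in KO. The 2 groups did not overlap, and the two-sided exact permutation test gave p = 0.333, the smallest that 2 libraries against 2 allow.

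Asporin, another relative, has a stretch of aspartates and binds collagen. Aspn read 262 and 266 FPKM in WT against 491 and 1261 in KO. Both KO values were higher, but they lay far apart, and the log2 difference of 1.57 (SE 0.45) did not pass (limma adjusted p = 0.208). Leaving out KO replicate 2 gave 0.89, leaving out KO replicate 1 gave 2.25.

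Lumican, fibromodulin, Prelp and osteoglycin form the other branches of the family, several of them carrying keratan sulfate. Fibromodulin sets fibril thickness and guides collagen cross-linking. Fmod read 7.27 and 9.51 FPKM in WT against 66.2 and 64.5 in KO, or 8.39 ± 1.6 against 65.3 ± 1.2 (SD, n = 2). It was the lowest member in every library, and its groups were the most clearly separated in fold. The log2 difference was 2.83 (SE 0.37, limma adjusted p = 0.065), and 125 of the tested genes (0.832%) had a larger one.

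Lum, which spaces collagen fibrils, read 780 and 547 FPKM in WT against 1258 and 1427 in KO (log2 difference 1.04, SE 0.25, limma adjusted p = 0.175). Ogn, a small protein also called mimecan, read 303 and 183 in WT against 360 and 689 in KO (log2 difference 1.08 with SE 0.40, adjusted p = 0.267). Prelp, which ties heparan sulfate of basement membranes to collagen, read 75.9 and 130 in WT against 155 and 314 in KO (log2 difference 1.14 with SE 0.44, adjusted p = 0.274). In Ogn and Prelp the lower KO library came close to the higher WT library. Without KO replicate 2 their log2 differences were 0.61 and 0.64, and without KO replicate 1 they were 1.55 and 1.65. After median-ratio scaling the groups overlapped for Prelp, and Hspg2 had both KO values under both WT values. The other 7 members stayed separated upwards, against 23.9% of all genes.

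Versican and perlecan are the large members. Vcan read 107 and 96.4 FPKM in WT against 408 and 694 in KO (log2 difference 2.37, SE 0.31, limma adjusted p = 0.065). Both KO values were several times the WT values, and 230 tested genes (1.53%) had a larger difference. After median-ratio scaling Vcan passed (log2 difference 2.00, adjusted p = 0.038). Hspg2 read 690 and 734 in WT against 669 and 790 in KO, so that the WT values lay between the KO values. Its log2 difference was 0.03 (SE 0.21, 95% interval -0.49 to 0.55, adjusted p = 0.951), and -0.34 after median-ratio scaling (adjusted p = 0.491).

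The order of the members by footprint level therefore differed between the groups. In WT, Hspg2 (712 ± 31.3 FPKM), Bgn (690 ± 16.5) and Lum (663 ± 165) stood first and overlapped from one to the next. Dcn, Aspn and Ogn followed at 289 ± 16.5, 264 ± 2.6 and 243 ± 84.7 FPKM, the last pair overlapping. Prelp (103 ± 38.5) and Vcan (102 ± 7.8) overlapped, and Fmod was last and separate (SD, n = 2 throughout). In KO, Bgn was first and separate at 2381 FPKM, then Lum at 1342. Aspn (876 ± 545) overlapped both Lum and Hspg2 (730 ± 85.5), its neighbours in the order. Dcn, Vcan and Ogn overlapped in turn at 556 ± 154, 551 ± 202 and 524 ± 233 FPKM, and Prelp and Fmod came last, each separate. The sources used here do not say whether footprints were scaled by whole-exon or by coding length, and that choice would move genes with long untranslated ends against the others.

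Bgn made up 21.9% and 23.0% of the summed footprint level of the 9 members in WT against 37.4% and 29.4% in KO. Hspg2 made up 21.5% and 24.9% in WT against 10.9% and 9.45% in KO. The sum itself was 3204 and 2945 FPKM in WT against 6161 and 8360 in KO.

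The RNA level shows how far these differences were present before translation. It was taken from the deposited tables as the footprint level divided by the translation efficiency, and is called the implied RNA level. Bgn and Vcan rose in RNA by limma's test, 3.44-fold and 3.51-fold, and no member fell. An unadjusted p under 0.05 was reached by 3 members, against 28.3% of genes. Rises past the threshold made up 4.20% of the 12529 genes tested. In 4 of 9 members (Bgn, Vcan, Aspn and Hspg2) both KO libraries lay above both WT libraries, against 44.2% of all genes, and in none did both lie below, against 18.6%. The median log2 difference was 0.52 over the members and 0.22 over all genes. Over all genes 526 rose (4.20%) and 192 fell (1.53%), and after median-ratio scaling 327 rose and 309 fell, with Bgn and Vcan still called (adjusted p = 0.017 and 0.023).

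Bgn RNA read 111 and 135 FPKM in WT against 468 and 377 in KO (log2 difference 1.78, SE 0.23, limma adjusted p = 0.023). The groups stood well apart, and the difference was as large as that of its footprints. Without WT replicate 1 the call was lost (log2 difference 1.64, adjusted p = 0.062), and it held without each other library. Vcan RNA read 6.87 and 6.95 FPKM in WT against 29.2 and 20.1 in KO (log2 difference 1.81 with SE 0.25, adjusted p = 0.026). Its log2 difference lay between 1.54 and 2.08 without single libraries, with adjusted p from 0.0014 to 0.019 in these fits, whose spread comes from 1 group. Both calls were lost when the mean-variance trend was left out of the model (adjusted p = 0.052 for Bgn and 0.053 for Vcan).

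Aspn RNA read 43.5 and 51.3 FPKM in WT against 71.97 and 80.6 in KO (log2 difference 0.69, SE 0.21, limma adjusted p = 0.094). Hspg2 RNA read 194 and 208 in WT against 321 and 257 in KO (log2 difference 0.52 with SE 0.22, adjusted p = 0.188). Hspg2 thus lay higher in KO in RNA, though not past the threshold, while its footprints overlapped between groups. Without KO replicate 2 the RNA difference of Hspg2 was 0.68 (adjusted p = 0.030), in a fit that called 3742 of the 12529 genes, against 718 with all libraries.

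In 5 members the RNA groups overlapped. Dcn RNA read 242 and 318 FPKM in WT against 431 and 244 in KO, Lum 54.5 and 66.6 against 80.8 and 53.5. Ogn RNA read 57.8 and 60.8 in WT against 45.7 and 61.6 in KO, and Prelp 15.5 and 19.7 against 17.2 and 13.6. The log2 differences of these 4 lay between -0.19 and 0.22, with limma adjusted p from 0.626 to 0.780. After median-ratio scaling Ogn and Prelp had both KO values under both WT values, as did 30.6% of all genes. Fmod RNA read 0.376 and 7.92 FPKM in WT against 11.6 and 6.17 in KO (log2 difference 2.29 with SE 1.26, adjusted p = 0.272). Its WT libraries thus lay far apart in RNA while their footprints were close, and leaving out WT replicate 1 gave a difference of 0.09, leaving out WT replicate 2 one of 4.49. Its RNA comparison therefore rests on which WT library is used.

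In RNA the order of the members was another. Dcn had the highest RNA level in WT at 280 ± 53.8 FPKM, above Hspg2 (201 ± 9.6) and Bgn (123 ± 17.0), each separate from the next (SD, n = 2). In KO, Bgn (422 ± 64.6), Dcn (337 ± 132) and Hspg2 (289 ± 45.4) overlapped from one to the next. The share of Bgn in the summed RNA level of the 9 members was 15.3% and 15.4% in WT against 31.7% and 33.8% in KO. The ratio of Bgn to Dcn RNA was 0.458 and 0.424 in WT against 1.09 and 1.55 in KO, a mean 2.94-fold higher.

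**Figure D2:**
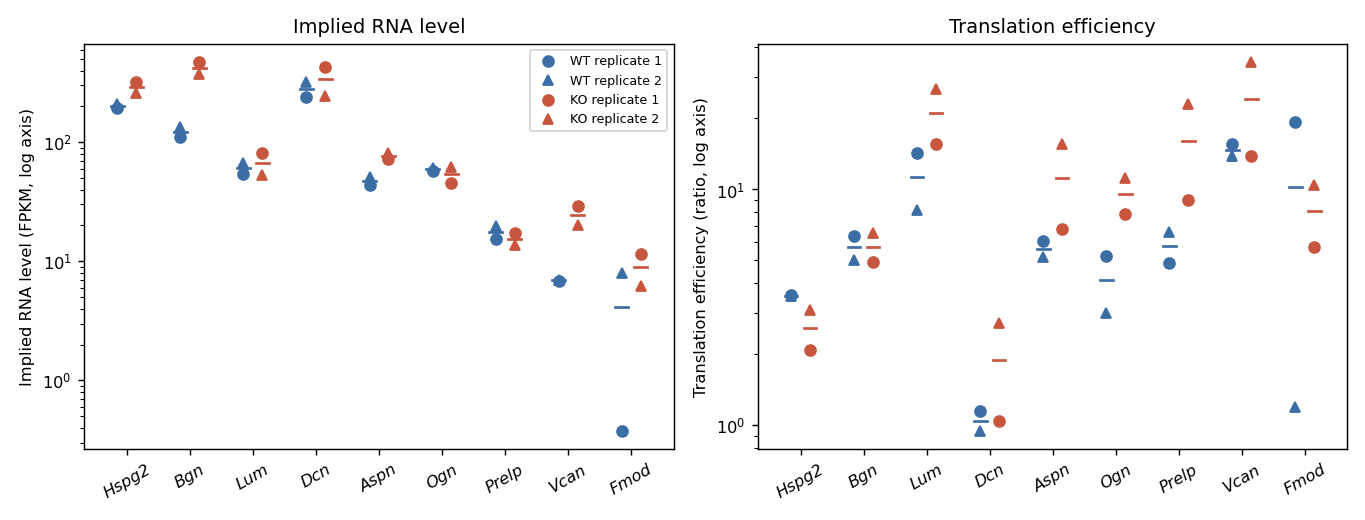
Implied RNA level in FPKM (left, log axis) and translation efficiency as a ratio (right, log axis) of the 9 members in the order of the footprint plot, with a point per library and a bar at each group mean. Bgn, Vcan, Aspn and Hspg2 separate upwards in RNA, while Lum, Ogn and Prelp overlap in RNA and separate upwards in translation efficiency. Aspn also separates upwards and Hspg2 downwards in translation efficiency, where KO replicate 2 is above KO replicate 1 for all 9.

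Translation efficiency (TE), footprint level over RNA level, was compared to ask whether ribosome load per mRNA differed. No member passed limma's test, nor did any of the 12529 genes, with 759 (6.06%) at an unadjusted p under 0.05. Lum, Ogn, Prelp and Aspn had both KO libraries above both WT libraries, against 24.0% of all genes, and Hspg2 had both below, against 12.0%. The median log2 difference was 0.69 over the members and 0.15 over all genes. TE is made from the other measures and is not independent of them.

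Among the 4 members with higher TE in both KO libraries, Prelp had 4.89 and 6.62 in WT against 9.05 and 23.1 in KO (log2 difference 1.34, SE 0.57, limma adjusted p = 0.806). Ogn had 5.24 and 3.01 in WT against 7.87 and 11.2 in KO (log2 difference 1.24 with SE 0.49, adjusted p = 0.806). Lum had 14.3 and 8.21 in WT against 15.6 and 26.7 in KO (log2 difference 0.91 with SE 0.52, adjusted p = 0.841), and Aspn 6.03 and 5.19 against 6.82 and 15.6. In Lum the nearest WT and KO values differed little.

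Bgn had a TE of 6.33 and 5.03 in WT against 4.93 and 6.52 in KO, which overlapped completely. Its log2 difference of 0.01 had a 95% interval of -1.06 to 1.07, and it was -0.14 after median-ratio scaling, where both KO values were under both WT values. Dcn had the lowest TE of the members in both groups, 1.15 and 0.946 in WT against 1.04 and 2.73 in KO. Vcan had the highest mean TE in both groups, 15.6 and 13.9 in WT against 13.9 and 34.6 in KO (log2 difference 0.58, SE 0.57, limma adjusted p = 0.915). Its position above Lum was within the spread, as were most neighbours in this order. Hspg2 had 3.55 and 3.54 in WT against 2.08 and 3.07 in KO (log2 difference -0.49 with SE 0.50, adjusted p = 0.915). Fmod, with 19.4 and 1.20 in WT, could not be placed.

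Replicates of a group differed from each other in footprints, RNA and TE. TE was higher in KO replicate 2 than in KO replicate 1 in 9 of 9 members, as it was in 66.4% of all genes, and footprint levels in 8 of 9, against 64.8%. In WT, TE was higher in replicate 2 than in replicate 1 in 1 of 9 members, against 32.1% of all genes. Implied RNA was higher in WT replicate 2 than in WT replicate 1 in 9 of 9 members, against 66.5% of all genes. It was higher in KO replicate 2 than in KO replicate 1 in 2 of 9, against 46.2%. Without KO replicate 2 the log2 TE difference was 0.99 for Ogn, 0.67 for Prelp, 0.52 for Lum and 0.29 for Aspn.

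**Figure D3:**
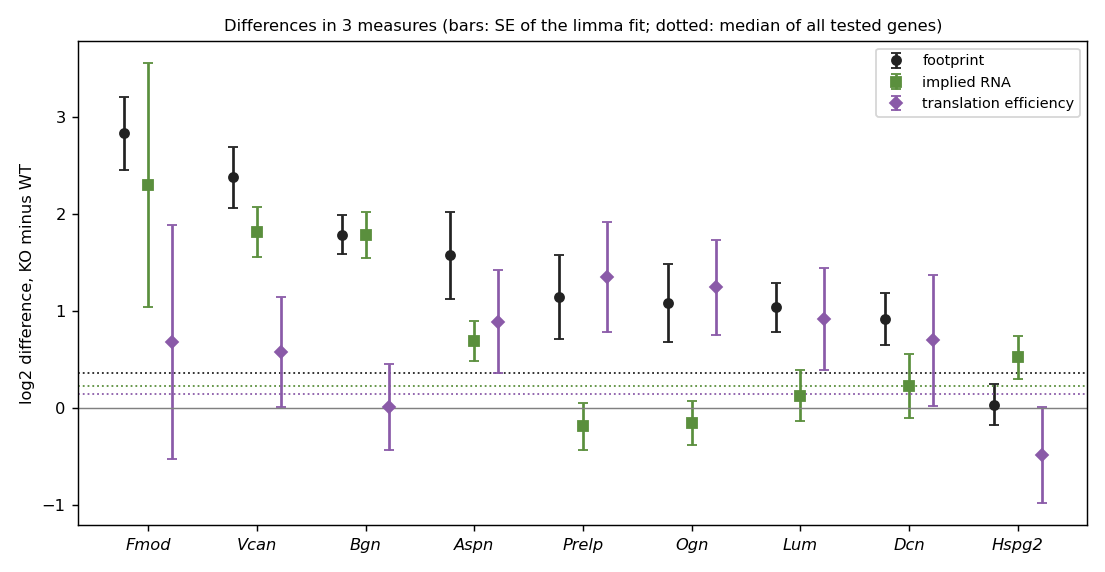
Log2 difference, KO minus WT, of footprint level, implied RNA level and translation efficiency for the 9 members, ordered by footprint difference, with bars of 1 standard error of the limma fit (n = 2 per group) and dotted lines at the median of all tested genes. Bgn has near-equal footprint and RNA differences of 1.79 and 1.78, whereas Prelp and Ogn have footprint differences above 1 and RNA differences below 0.

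**Figure D4:**
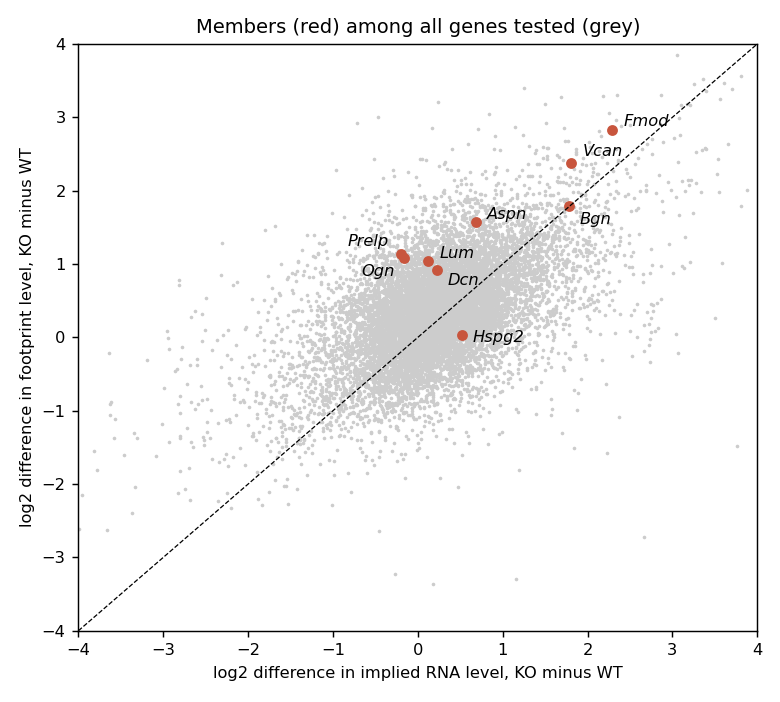
Log2 difference in footprint level against that in implied RNA level for 12529 genes (grey, of which 36 lie beyond the axes at 4) and the 9 members (red), with the line of equal differences dashed. Bgn lies on the line, Hspg2 below it and the other members above it.

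Markers of other cells were read beside these levels. Of 10 fibroblast markers that are no matrix genes, none passed in footprints, with a median log2 difference of 0.95 and 5 of 10 separated upwards, a share near the 39.5% of all genes. Their summed footprint level was 1589 and 2386 FPKM in WT against 2562 and 4503 in KO, of which Gsn, an actin-severing protein that other cells also make, gave 58.5% to 71.1%. In RNA, Tcf21 and Meox1, transcription factors of fibroblasts, rose, Scara5 fell, and the median was -0.03. Macrophage markers summed to 625 and 1059 FPKM of footprints in WT against 991 and 2163 in KO, which overlapped, and none of 10 passed. Their RNA summed to 130 and 124 FPKM in WT against 296 and 236 in KO, with a median log2 difference of 0.88. In RNA, 8 of these 10 had both KO values above both WT values, against 44.2% of all genes, and 2 rose: Lyz2, a lysozyme (2.69-fold, limma adjusted p = 0.030), and C1qa, a complement chain (2.06-fold, adjusted p = 0.046). Macrophage RNA was thus higher in the same libraries as that of Bgn, Vcan, Tlr4 and Ctss, and its part in their levels was not tested. Endothelial markers summed to 2920 and 2312 FPKM of footprints in WT against 3457 and 4228 in KO, with medians of 0.54 in footprints and 0.05 in RNA and none past the test. Smooth muscle and pericyte markers summed to 6301 and 6638 FPKM in WT against 4911 and 5569 in KO, a sum to which Acta2, smooth muscle actin, gave the largest part in each library (3365 and 3959 against 2721 and 1816 FPKM). By gene their footprint median was 0.38, with 5 of 10 separated upwards and 2 downwards and none past the test, and in RNA 1 fell (Smtn) with a median of -0.09. No marker of these 4 lists was listed at 0 in all libraries.

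Set against the summed RNA of the fibroblast markers, a comparison chosen after the values were seen, Bgn RNA stood at 0.490 and 0.548 in WT against 1.26 and 1.71 in KO. Vcan RNA stood at 0.0304 and 0.0283 in WT against 0.0787 and 0.0909 in KO. Both remained separate, 2.83-fold and 2.89-fold higher in KO, and 2.01-fold and 2.05-fold when Gsn was left out of the sum. Dcn RNA overlapped, at 1.07 and 1.29 in WT against 1.16 and 1.10 in KO. With all 10 markers summed, both KO values of Prelp RNA lay below both WT values. Those of Hspg2 lay above, at 0.859 and 0.845 in WT against 0.865 and 1.17 in KO. Without Gsn in the sum both KO values of Dcn, Lum, Ogn, Prelp and Hspg2 lay below both WT values, so that Hspg2 changed direction. Gsn made up 54.55% and 56.43% of the summed marker RNA in WT against 39.55% and 34.88% in KO. The ratios therefore depend on which markers are summed. How many of all genes separate on such ratios was not computed. In footprints per marker sum, Bgn was 1.98-fold higher and separate, and Vcan stood at 0.0676 and 0.0404 in WT against 0.159 and 0.154 in KO. Fmod was 4.50-fold higher, and Fmod, Aspn and Prelp were also separate upwards. Hspg2 was separate downwards, and Dcn, Lum and Ogn overlapped. Without Gsn in the sum the footprint ratio of Bgn overlapped between groups, at 1.35 and 0.983 in WT against 2.27 and 1.31 in KO. Those of Aspn and Prelp overlapped too. Those of Vcan and Fmod stayed separate at 2.27-fold and 3.42-fold, and that of Hspg2 stayed lower. What part the number of fibroblasts had in these levels was not tested.

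The genes around the members were read from 11 lists of proteoglycan biology, 180 tested genes without the members. In footprints 3 of the 180 (1.67%) rose, against 0.253% of all genes, and none fell, against 0.126%. In RNA 25 of 173 (14.5%) rose, against 4.20% of all genes, and none fell, against 1.53%. The list of collagen fibril partners held all 3 footprint rises and 10 of the RNA rises. Earlier results of these data were known when the lists were written, so these shares are no independent evidence about proteoglycan biology. The footprint median was 0.97, against 0.36 over all genes. Without single libraries no gene of the 15031 passed in footprints, so that the loss of the 3 calls there says nothing of these genes. In RNA 9 of the 25 calls held without each library in turn, with the limit on such fits given above. Counts in single lists are small and are read against the 4.20%. After median-ratio scaling 16 of the 25 held, and with the trend left out 2 (Ptprz1 and Tgfb2). All 3 footprint calls held after that scaling, with the replicate block and without small RNA genes and unnamed models. With the trend left out 0 of the 3 held, with no low-value filter 0, and with a pseudocount of 0.1 only 1 (Eln).

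Enzymes that build the sugar chains were tested in 4 lists. Of 51 such genes none passed in footprints, with a median log2 difference of 0.75 and 31 separated upwards, against 39.5% of all genes. In RNA 3 of 48 (6.25%) rose, close to the 4.20% of all genes: Dse, the epimerase that turns chondroitin into dermatan sulfate (2.44-fold, limma adjusted p = 0.048), and the extracellular sulfatases of heparan sulfate, Sulf1 (2.64-fold, adjusted p = 0.046) and Sulf2 (2.29-fold, adjusted p = 0.031). None of these 3 kept its call in every fit without 1 library. Dse was lost without WT replicate 1, WT replicate 2 or KO replicate 1, Sulf1 without WT replicate 1 or KO replicate 1, and Sulf2 without WT replicate 1 or WT replicate 2. In footprints Ugdh, which makes the glucuronic acid donor, read 68.3 and 67.2 FPKM in WT against 127 and 186 in KO, and Chpf, a chondroitin polymerising factor, 40.6 and 20.9 against 72.1 and 108, without passing.

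Hyaluronan genes and versican partners had a footprint median of 1.32 over 15 tested genes, with none past the threshold. Cd44, the hyaluronan receptor, read 85.7 and 88.8 FPKM in WT against 291 and 409 in KO (limma adjusted p = 0.069). In RNA Cd44 rose 3.14-fold (adjusted p = 0.025) and Tnfaip6, a hyaluronan-binding protein of inflamed tissue, 4.61-fold (adjusted p = 0.044). Cd44 kept its RNA call without each single library, whereas Tnfaip6 lost it without KO replicate 1. Of the proteases that cut matrix proteoglycans and their inhibitors, 21 were tested and none passed in footprints. In RNA 2 of 20 rose: Adamts8, a metalloprotease (9.72-fold, adjusted p = 0.022), and Ctss, cathepsin S of lysosomes (3.24-fold, adjusted p = 0.022). Both held without each single library. The RNA calls of Cd44, Tnfaip6, Adamts8 and Ctss were all lost with the trend left out. Timp1, an inhibitor of metalloproteases, read 27.3 and 23.6 FPKM of footprints in WT against 88.6 and 430 in KO (adjusted p = 0.175), and the KO libraries lay far apart.

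Receptors and signalling partners of the small leucine-rich family had 20 tested genes, all with footprint differences above 0 and none past the threshold. In RNA 4 of 20 rose: the growth factors Tgfb2 (6.46-fold, limma adjusted p = 0.016), Tgfb3 (2.11-fold, adjusted p = 0.046) and Bmp4 (2.63-fold, adjusted p = 0.042), and the Toll-like receptor Tlr4 (2.27-fold, adjusted p = 0.044). Tgfb2 kept its call without each single library and with the trend left out. Tgfb3 lost its call without WT replicate 1, WT replicate 2 or KO replicate 1, Bmp4 without WT replicate 1 or KO replicate 1, and Tlr4 without WT replicate 1 or WT replicate 2. Tgfb2 footprints read 14.1 and 21.4 FPKM in WT against 72.7 and 73.4 in KO (adjusted p = 0.123).

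Of 10 other genes of the small leucine-rich family 6 were tested, none passed in footprints, and Optc and Podnl1 were listed at 0 in all libraries. Omd, which lies between Aspn and Ogn, read 2.47 and 5.05 FPKM of footprints in WT against 20.9 and 32.3 in KO (limma adjusted p = 0.152). Epyc, of the Dcn and Lum group, read 3.39 and 2.63 against 12.4 and 11.2 (adjusted p = 0.216). Ecm2, next to Aspn, read 74.2 and 83.9 against 116 and 173 (adjusted p = 0.258). All 3 were separated upwards, as were their neighbours among the members. Optc, at 0 throughout, lies next to Prelp, and the level of Kera, which lies between Lum and Epyc, is not given here. So were 5 of the 6 tested genes of this list, against 39.5% of all genes. Whether neighbouring genes differed together was not tested. In RNA, Podn rose 2.29-fold (adjusted p = 0.049), and lost its call without WT replicate 1 or KO replicate 1.

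Among 23 tested core proteins of other proteoglycans none passed in footprints, and 3 rose in RNA: Col9a2, a collagen chain that can carry chondroitin sulfate (16.5-fold, limma adjusted p = 0.024), Ptprz1, a receptor phosphatase (5.28-fold, adjusted p = 0.036), and the syndecan Sdc1 (3.09-fold, adjusted p = 0.046). Col9a2 held without each single library, Ptprz1 was lost without KO replicate 1, and Sdc1 without WT replicate 1 or KO replicate 1. With the trend left out Ptprz1 held, and Col9a2 and Sdc1 were lost. The 20 tested basement membrane partners of perlecan had no gene past the threshold in footprints or RNA, with a footprint median of 0.71 and 15 separated upwards, against 39.5% of all genes. Hspg2, with a difference of 0.03, thus lay below the median of that list.

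Collagen fibril partners, the proteins that the small leucine-rich family binds or works with, held all 3 footprint rises. These were elastin (Eln, 6.70-fold, limma adjusted p = 0.010), Ccn2 (14.5-fold, adjusted p = 0.037) and Thbs1 (5.89-fold, adjusted p = 0.041). Without single libraries the log2 difference of Eln ran from 2.72 to 2.77, that of Thbs1 from 2.23 to 2.89 and that of Ccn2 from 3.25 (KO replicate 2 left out) to 4.47 (KO replicate 1 left out). All 24 tested genes of the list had a footprint difference above 0, with a median of 1.40, and 23 were separated upwards, against 39.5% of all genes. In RNA 10 rose and none fell. Among them Lox, which cross-links collagen and elastin, read 5.57 and 8.15 FPKM of RNA in WT against 43.1 and 29.3 in KO (5.28-fold, adjusted p = 0.022). Col12a1, a collagen on the fibril surface, read 0.464 and 1.38 FPKM of RNA in WT against 24.6 and 15.0 in KO (24.0-fold, adjusted p = 0.019). Lox, Col12a1, Loxl2 and Ccn2 kept their RNA calls without each single library, and the other 6 of the 10 did not. All 10 RNA calls were lost with the trend left out. Earlier results of these data were known when this list was written, so its direction is no independent evidence.

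**Figure D5:**
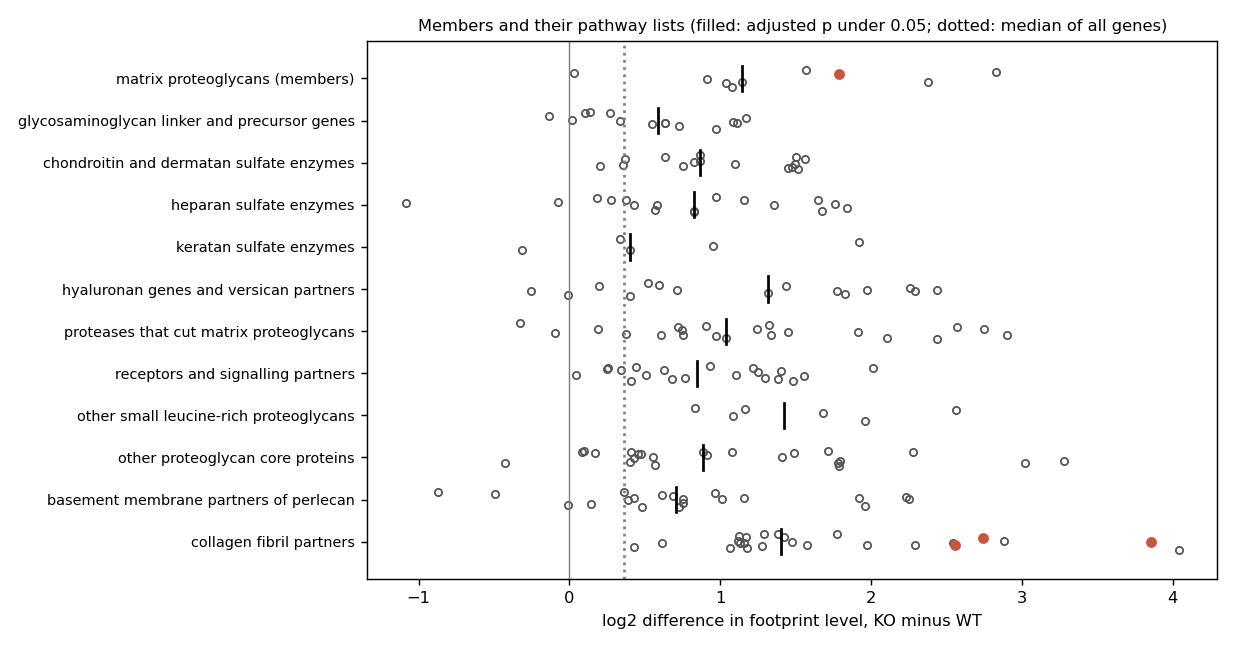
Log2 difference in footprint level, KO minus WT, of the 9 members and of the tested genes of 11 lists, with a point per gene, filled red where limma's adjusted p was under 0.05, a bar at each list's median and a dotted line at the median of all tested genes. Bgn is the filled point among the members, and the other 3 are Eln, Ccn2 and Thbs1 among the collagen fibril partners.

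The genes whose footprint profile over the 4 libraries was most like that of Bgn were found by the root mean square distance between mean-centred log2 values, among 9237 protein genes with a mean of at least 10 FPKM. They were Galnt16 (distance 0.039), an enzyme of protein glycosylation, Mrto4 (0.047), a ribosome assembly factor, Paxx (0.061), a DNA repair factor, Adamts2 (0.063), the procollagen protease, and P3h3 (0.071), a collagen prolyl hydroxylase. Adamts2 read 84.2 and 90.3 FPKM in WT against 311 and 313 in KO (limma adjusted p = 0.056), and the other 4 had adjusted p from 0.124 to 0.152. With 4 libraries the likeness rests mainly on a difference of similar size and close replicates.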

How the data were processed

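Frozen heart, about 100 mg, was lysed with 100 µg/mL cycloheximide, digested with RNase I and depleted of ribosomal RNA, per the labels' protocols. The authors deposited FPKM of ribosome footprints per Ensembl gene and library, and a translation efficiency, a ratio per gene and library. The submitters' processing notes list the aligners STAR 2.7.4a and Bowtie 1.3.1, the counters Cufflinks 2.2.1 and HTSeq 0.13.5, FastQC 0.11.9 and cutadapt 3.7, with the genome GRCm38 (mm10). The sources used here do not give their order, settings, filters or strand use.

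All 59296 quotients of FPKM and TE could be written in 6 or fewer significant digits (tolerance 1e-10, relative), so the quotient was used as the RNA level behind the ratio. The sources used here do not describe the RNA libraries. TE values of 0 were treated as missing. An FPKM of 0 can be a failed estimate, since 5 of 13 mitochondrial protein genes were listed at 0 in all libraries. Low values showed no common step from which reads could be recovered (the most common ratio bin held at most 2.44% of low genes), so no count test was run.

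Genes with at least 1 FPKM in at least 2 of 4 libraries were tested as log2(FPKM + 1) with limma 3.58.1 in R 4.3.3 (lmFit, eBayes with trend, two-sided). RNA and TE were tested as log2 values where TE was above 0 in all 4 libraries. P-values were adjusted by Benjamini-Hochberg over all tested genes and called at 0.05. The model was tested on simulated data. Tables and plots were made with Python 3.11.15. Gene loci and start sites come from RefSeq.

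Members and lists were chosen with earlier results of these data known. Named were all members and Nat10, and from each list the called genes and up to 3 with the largest footprint difference at a mean of at least 5 FPKM in 1 group, of which the text takes a part, plus the 5 profiles nearest Bgn. Podnl1, Optc, Ecm2 and the cell type markers were named after their values were seen. Alternatives were another pseudocount, no low-value filter, median-ratio scaling, no trend, no small RNA genes, a replicate block and each library left out.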

Additional observations from a re-analysis of the deposited data

How the results depend on the processing

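Results below are for the alternatives tried, with the calls of the main setting first. The 57 genes called in footprints became 143 with the replicate block, 223 without small RNA genes and unnamed models, 36 without the trend, 34 with a pseudocount of 0.1 and 8 with no low-value filter, and 0 without any 1 library (0 to 0, with 1010 to 2497 genes at an unadjusted p under 0.05 by limma). The members called in footprints, 1 (Bgn), became 3 (Bgn, Fmod and Vcan) with the replicate block and without small RNA genes, 0 without the trend, with the pseudocount of 0.1, with no low-value filter and without any 1 library (0 to 0). Median-ratio scaling kept the count at 1, with Vcan in place of Bgn.

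The 718 genes called in RNA became 1429 with the replicate block, 67 without the trend and 704 to 3742 when a library was left out. The members called in RNA, 2, became 0 without the trend and 1 to 3 when a library was left out. With the replicate block 3 passed (Bgn, Fmod and Vcan). Same-numbered libraries did not deviate together (r = -0.056 in footprints, -0.219 in RNA and -0.018 in TE across genes). Such correlations cannot exclude that they were prepared together, so whether the replicate numbers are pairs is not known. With crossed numbers as a block, an alternative added after the data were seen, 3241 genes and 4 members were called in RNA. In TE the 0 genes called (759 at an unadjusted p under 0.05 by limma) became 178 with the replicate block, 1 without small RNA genes, 1 without the trend and 0 to 33 when a library was left out, with 0 members in every case.

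The log2 difference of the Bgn to Dcn footprint ratio, 0.87, was 0.63 to 1.11 when a library was left out, 0.87 with the replicate block and 1.56 on the implied RNA level. Differences that changed sign were small or rested on 1 library. Hspg2 footprints (0.03) were -0.34 after median-ratio scaling and -0.089 to 0.15 when a library was left out (-0.014 without WT replicate 1). Lum RNA (0.12) was -0.093 after scaling and -0.17 to 0.42 when a library was left out (-0.020 without WT replicate 1), and Bgn TE (0.01) was -0.14 and -0.20 to 0.21 (-0.16 without WT replicate 2). When a library was left out, Dcn RNA ran from -0.19 to 0.63, Ogn RNA from -0.38 to 0.056, Dcn TE from -0.0039 to 1.39, Fmod TE from -1.33 to 2.68, Vcan TE from -0.080 to 1.23 and Ctss footprints from -0.14 to 1.64. The cause of these changes was not tested. With no read depth, the precision of weak genes such as Fmod is unknown.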

Other observations

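Adipocyte markers were near 0 except in 1 library. Plin1, the perilipin of fat droplets, read 13.3 FPKM of footprints in KO replicate 1 and was listed at 0 in the other 3 libraries. Adipoq, the fat hormone adiponectin, read 4.73 FPKM there and was listed at 0 in the others, and Cfd, the secreted protease adipsin, read 12.0 FPKM there and at most 1.36 elsewhere. Epicardial markers summed to 33.6 and 23.7 FPKM in WT against 84.8 and 109 in KO, and no epicardial gene passed in footprints. In RNA 1 of the 3 tested epicardial genes rose, against 4.20% of all genes. Schwann cell markers summed to 10.6 and 16.2 FPKM in WT against 34.9 and 29.3 in KO. Red cell markers summed to 1248 and 1025 FPKM in WT against 1494 and 726 in KO, which overlapped.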
